A study of Mus musculus with 40 samples.

Results

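Il33 and Il1rl1 encode a ligand and its receptor, and the measurements described here are those of Il33. The gene set was chosen by symbol, as every probe set (a group of short probes that reads 1 transcript) annotated to Il33 or Il1rl1. The annotation used here names 1 probe set for Il33, 1416200_at, and 0 for Il1rl1, whose levels were not analysed here. Of the 2 genes, 1 was therefore measured, out of 12393 genes with a probe set of a single symbol. RNA of whole mouse lung was measured on 40 one-colour arrays in 8 groups of 5. The tested lungs were taken from C3H or AJ mice 24 h or 6 h after aspiration of an allergen in phosphate-buffered saline (PBS), and the matching controls after aspiration of PBS alone. All groups thus share the aspiration of PBS. Titles write OVA for the allergen where descriptions write HDM, so it is called allergen here. Strain was taken from the titles, because all descriptions name AJ, the strain they call hyperresponsive. The labels give no ages and do not say that the arrays are separate mice. The tests therefore rest on array-to-array spread, which may be partly technical.

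IL-33 is a cytokine of the interleukin 1 family that is stored in the nucleus of epithelial, endothelial and stromal cells. It acts as an alarmin, since damaged cells release it and neighbouring immune cells sense it. Its receptor pairs the protein encoded by Il1rl1, known as ST2, with the shared co-receptor encoded by Il1rap, and signals through the adaptor MyD88 to NF-kB and MAP kinases. In the lung, mast cells, group 2 innate lymphoid cells, T helper 2 cells and regulatory T cells carry ST2, and its activation drives release of IL-5 and IL-13. In the mouse lung, alveolar type 2 cells are a known source of IL-33.

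Il33 has 2 annotated start sites in RefSeq (GRCm38.p6), both on the plus strand, 20677 bases apart. The windows below are shown because they are the regulatory sequence next to the starts of the transcript that changed. They run from 250 bases before to 50 bases after each start, and capitals mark the motifs found in them.
Il33 upstream start, chr19:29924863-29925162: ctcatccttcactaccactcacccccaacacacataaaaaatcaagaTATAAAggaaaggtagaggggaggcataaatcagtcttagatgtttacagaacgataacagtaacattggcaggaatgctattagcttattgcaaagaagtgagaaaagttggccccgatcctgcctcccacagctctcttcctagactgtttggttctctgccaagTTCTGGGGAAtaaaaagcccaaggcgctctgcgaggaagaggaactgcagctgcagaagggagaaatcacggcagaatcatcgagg
Il33 downstream start, chr19:29945540-29945839: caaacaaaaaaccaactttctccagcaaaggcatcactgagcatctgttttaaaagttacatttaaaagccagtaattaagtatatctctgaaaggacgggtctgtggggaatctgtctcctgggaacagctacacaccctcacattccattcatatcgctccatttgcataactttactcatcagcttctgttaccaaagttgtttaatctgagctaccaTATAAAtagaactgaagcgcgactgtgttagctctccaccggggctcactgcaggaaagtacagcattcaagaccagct

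Both strands of the windows were searched for 5 motifs. The TATA box TATAAA lay at -29 to -24 before the downstream start and at -203 to -198 before the upstream start, and 13.6% of all 32851 windows of 300 bases hold it. The STAT6 site, TTC and GAA with any 4 bases between them, matched at -36 to -27 before the upstream start as TTCTGGGGAA, and 6.95% of windows hold such a match. No match was found in either window for GAAA repeated after any 2 bases, bound by interferon regulatory factors (3.44% of windows), TGANTCA, bound by Fos and Jun (7.81%), or for GGG and CC with any 5 bases between them, bound by NF-kB (50.8%). None of the matches overlapped. A match is a description of these letters only, and the probe set does not tell the starts apart.

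Across all 40 arrays the deposited Il33 intensity ran from 213 to 1431. On the single arrays Il33 stood between the 78.0 and 98.2 percentile of all probe sets. Of 20 allergen arrays, 19 lay above the highest of 20 PBS arrays, which had an intensity of 495. The exception was 1 C3H array at 24 h, with 332. The tissue label was checked with Sftpc and Scgb1a1, the surfactant protein C and club cell secretoglobin genes, chosen for this check after their values were seen. Both lay above the 99.8 percentile on every array. Array 2 of the C3H PBS group at 6 h stood apart from the other arrays of its group across all probe sets, with a mean correlation of 0.939 to them, against 0.960 to 0.977 for every other array. It also had the lowest Il33 value of the series, so results that rest on it are given with and without it.

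**Figure D1:**
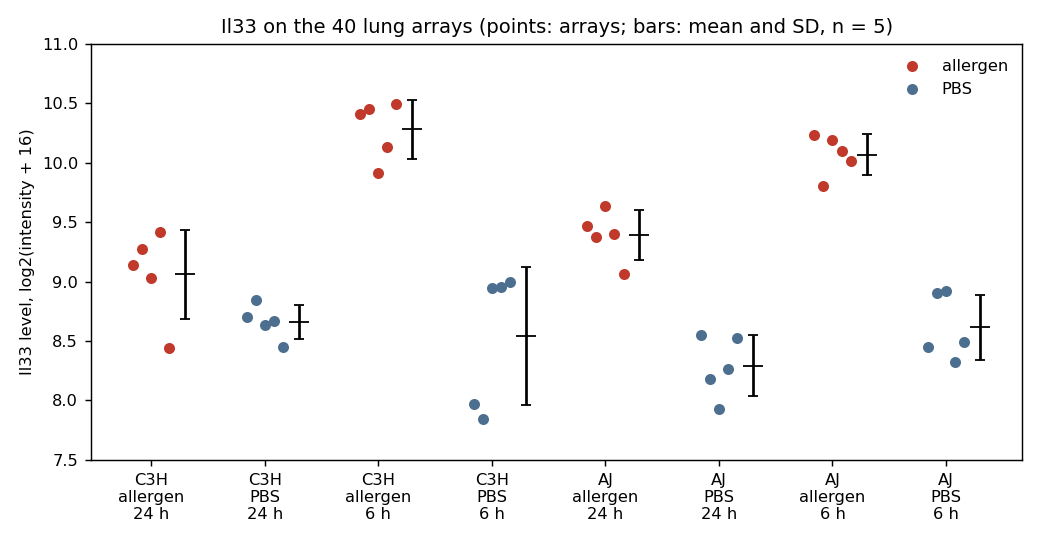
Il33 level as log2(intensity + 16) on each of the 40 arrays (points, allergen red and PBS blue), with the group mean and SD (bars, n = 5), by strain, treatment and time. All 5 allergen arrays lie above all 5 PBS arrays at 6 h in both strains and at 24 h in AJ, while the 24 h groups of C3H overlap.

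In C3H lungs at 24 h, Il33 intensities were 549, 603, 507, 667 and 332 with allergen, against 401, 444, 382, 391 and 334 with PBS. Of the allergen arrays, 4 were higher than every PBS array and 1 was lower than all of them, so the groups overlapped. On the scale log2(intensity + 16), which is used for all differences below, C3H lungs at 24 h averaged 9.06 ± 0.38 after allergen and 8.66 ± 0.14 after PBS (SD, n = 5 per group). The difference of 0.40 ± 0.19 (SE) did not pass the threshold of 0.05 on p-values adjusted over all 22626 probe sets (limma adjusted p = 0.287, 95% interval 0.01 to 0.79). In that comparison 1.64% of probe sets passed as higher, 0.84% passed as lower and 2.3% were higher with no overlap. The value was 0.55 without the allergen array at 332, and it did not pass then either (limma adjusted p = 0.109).

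In C3H lungs at 6 h, Il33 intensities were 1347, 1384, 949.5, 1109 and 1431 with allergen, against 235, 213, 477, 480.1 and 495 with PBS. All allergen arrays lay well above all PBS arrays, and the PBS arrays themselves fell into a low pair and a higher group of 3. Levels averaged 10.28 ± 0.25 after allergen and 8.54 ± 0.58 after PBS (SD, n = 5 per group). Il33 rose by 1.74 ± 0.19 (SE), or 3.34-fold (limma adjusted p = 5.22e-08), in a comparison where 3.2% of probe sets passed as higher, 2.51% passed as lower and 2.74% were higher with no overlap. This change ranked 71st from the top among 22626 probe sets. Without PBS array 2, which stood apart, the difference was 1.56 (limma adjusted p = 3.92e-07).

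In AJ lungs at 24 h, Il33 intensities were 693, 647, 782, 661 and 519 with allergen, against 358, 274, 228, 292 and 353 with PBS. The groups were separate. Levels averaged 9.39 ± 0.21 after allergen and 8.29 ± 0.26 after PBS (SD, n = 5 per group), a rise of 1.1 ± 0.19 (SE), or 2.14-fold (limma adjusted p = 0.000141). In that comparison 3.42% of probe sets passed as higher, 2.38% passed as lower and 3.82% were higher with no overlap.

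In AJ lungs at 6 h, Il33 intensities were 1189.8, 878, 1151, 1081 and 1017 with allergen, against 334, 462, 468, 305 and 344 with PBS. The groups were again separate, and the lowest allergen array lay far above the highest PBS array. Levels averaged 10.07 ± 0.17 after allergen and 8.62 ± 0.27 after PBS (SD, n = 5 per group), a rise of 1.45 ± 0.19 (SE), or 2.73-fold (limma adjusted p = 4.21e-07). In that comparison 6.28% of probe sets passed as higher, 9.41% passed as lower and 4.89% were higher with no overlap. The exact permutation p of each of the 3 rises that passed was 0.00794 (two-sided, unadjusted), the smallest that 5 against 5 arrays allow, and that of C3H at 24 h was 0.0714.

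The strains were then compared in their response to allergen. At 24 h the Il33 difference between allergen and PBS was smaller in C3H than in AJ by 0.70 on the log2 scale (-0.70 ± 0.27, SE, 95% interval -1.25 to -0.15), which did not pass after adjustment (limma adjusted p = 0.282). In that contrast 0.177% of probe sets passed as lower. At 6 h the same contrast was 0.29 ± 0.27 (SE, 95% interval -0.26 to 0.84, limma adjusted p = 0.734), where 0.888% of probe sets passed as higher. Without the PBS array 2 of C3H at 6 h it was 0.11, and without array 1 of that group 0.15, so its size rests on that low pair. Il33 therefore passed at 24 h in AJ and not in C3H, without a strain difference that passed.

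The times were compared in the same way. In C3H the allergen effect was lower at 24 h than at 6 h by 1.34 on the log2 scale (-1.34 ± 0.27, SE, limma adjusted p = 0.0121), ranking 62nd from the lowest among 22626 probe sets, of which 0.349% passed as lower. Without the PBS array at 6 h that stood apart it was -1.16 (limma adjusted p = 0.028). The call was lost when only the arrays of the 4 groups entered the fit (limma adjusted p = 0.0804). In AJ the contrast was -0.35 ± 0.27 (SE, 95% interval -0.90 to 0.20, limma adjusted p = 0.605), where 1.63% of probe sets passed as lower. Whether the time effect differs between strains was not tested.

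Among allergen lungs alone, Il33 was lower at 24 h than at 6 h in both strains, with no overlap between the arrays. The difference was -1.22 ± 0.19 (SE) in C3H (limma adjusted p = 2.11e-05) and -0.68 ± 0.19 (SE) in AJ (limma adjusted p = 0.0114). Of all probe sets, 10% passed as lower in C3H and 6.25% in AJ, and 5.99% in C3H and 4.98% in AJ were lower with no overlap. Among PBS lungs the same contrast was 0.12 ± 0.19 (SE) in C3H and -0.33 ± 0.19 (SE) in AJ, and neither passed (limma adjusted p = 0.836 and 0.359), where 1.44% of probe sets passed as higher in C3H and 1.9% as lower in AJ. Without the C3H PBS array that stood apart the C3H value was -0.057. The allergen comparisons within a time and these contrasts between times share arrays, so they are not independent.

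Between strains at a fixed treatment and time, Il33 did not pass in any of the 4 contrasts. C3H minus AJ was -0.33 ± 0.19 (SE) with allergen at 24 h and 0.21 ± 0.19 (SE) with allergen at 6 h (limma adjusted p = 0.337 and 0.599), where 3.75% of probe sets passed as lower at 24 h and 4.75% as higher at 6 h. Without the C3H allergen array at 332 the 24 h value was -0.17 (limma adjusted p = 0.665). With PBS it was 0.37 ± 0.19 (SE) at 24 h and -0.08 ± 0.19 (SE) at 6 h (limma adjusted p = 0.504 and 0.9), where 1.05% passed as higher at 24 h and 1.95% as lower at 6 h. Without the C3H PBS array that stood apart the 6 h value was 0.10. The exact permutation p of the PBS contrast at 24 h was 0.0238 (two-sided, unadjusted), where intensities were 334 to 444 in C3H and 228 to 358 in AJ.

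**Figure D2:**
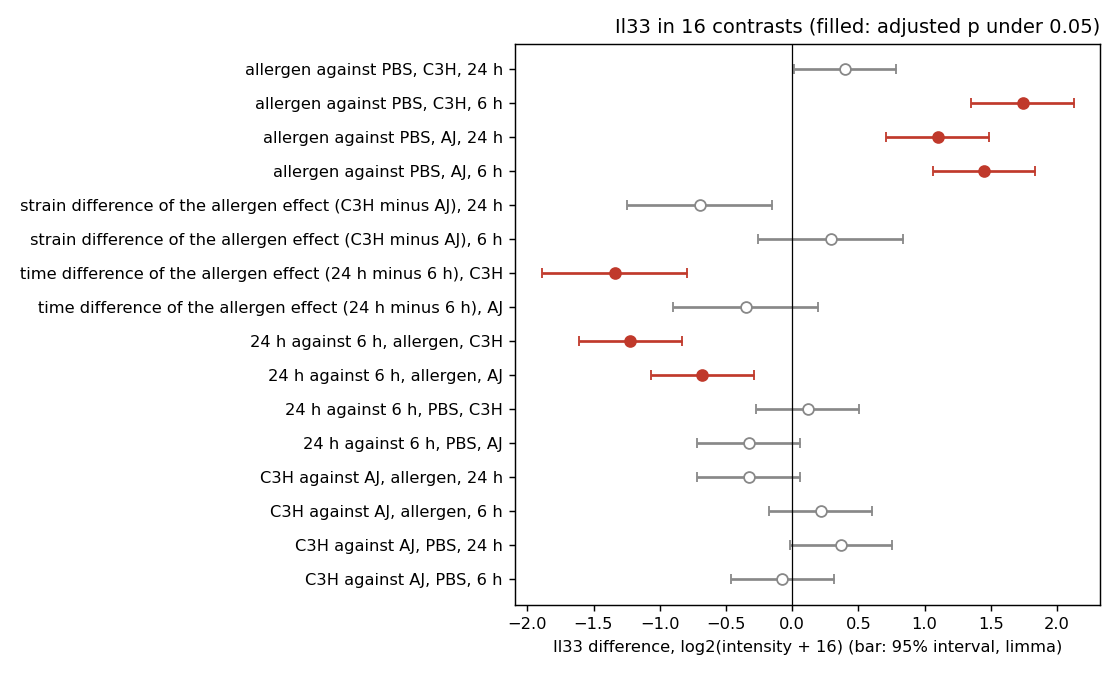
Il33 differences on the log2(intensity + 16) scale in the 16 contrasts, with 95% intervals from limma (bars); filled red points have an adjusted p under 0.05. The 3 allergen rises of 1.1 to 1.74, the drop of the effect with time in C3H and both drops with time among allergen lungs passed.

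Ordered by mean level, the groups ran from C3H with allergen at 6 h (10.28) through AJ with allergen at 6 h (10.07), AJ with allergen at 24 h (9.39), C3H with allergen at 24 h (9.06), C3H with PBS at 24 h (8.66), AJ with PBS at 6 h (8.62) and C3H with PBS at 6 h (8.54) to AJ with PBS at 24 h (8.29). The one pair of neighbours whose arrays were separate was AJ with allergen at 6 h and at 24 h. The groups C3H with allergen and with PBS at 24 h lay 0.40 apart, slightly more than the larger SD of 0.38, but their arrays overlapped. The other 5 pairs of neighbours differed by less than the larger SD of the pair. The PBS group of C3H at 6 h had the widest spread, with a coefficient of variation of 37.6% on the intensity scale, against 10.1% to 23.9% in the other groups.

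The cell types that could carry Il33 transcripts were followed with marker lists, and in bulk lung fewer cells of a type and less RNA per cell cannot be told apart. Alveolar type 2 markers did not rise where Il33 rose. Of 13 markers measured, 0 rose and 1 fell in C3H at 24 h, 0 rose and 3 fell in C3H at 6 h, 0 rose and 1 fell in AJ at 24 h, and 0 rose and 2 fell in AJ at 6 h. Of all probe sets, 0.84% fell in C3H at 24 h, 2.51% in C3H at 6 h, 2.38% in AJ at 24 h and 9.41% in AJ at 6 h, so 2 of 13 is near the share over the whole array. With quantile normalization 1 rose in AJ at 24 h, and with the replicate block 1 rose in C3H at 24 h. Etv5, a transcription factor of these cells, fell by 1.14 ± 0.19 in C3H and by 1.24 ± 0.19 in AJ at 6 h (SE). Abca3, which loads surfactant lipid, fell by 0.53 ± 0.13 in C3H at 6 h, and Sftpb, a surfactant protein gene, fell by 0.47 ± 0.14 in AJ at 24 h (SE). The summed intensity of the list overlapped between allergen and PBS arrays in all 4 comparisons. At 6 h it was 29892 to 40473 with allergen against 35324 to 38740 with PBS in C3H, and 32216 to 38583 with allergen against 32263 to 40572 with PBS in AJ. At 24 h it was 34302 to 46505 with allergen against 31632 to 42572 with PBS in C3H, and 32865 to 48915 with allergen against 33565 to 42110 with PBS in AJ.

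Endothelial markers fell in 4 of 14 in C3H and 5 of 14 in AJ at 6 h, with 0 higher in either. Among all probe sets, 0.84% (C3H, 24 h), 2.51% (C3H, 6 h), 2.38% (AJ, 24 h) and 9.41% (AJ, 6 h) fell. Those that rose were 1.64% (C3H, 24 h), 3.2% (C3H, 6 h), 3.42% (AJ, 24 h) and 6.28% (AJ, 6 h). The summed endothelial intensity at 6 h was 8708 to 11647 with allergen against 11043 to 16117 with PBS in C3H. In AJ it was 8184 to 11185 with allergen against 11393 to 12634 with PBS. At 6 h the transcription factor gene Sox18 fell in AJ (-2.29 ± 0.18, SE), Sox17 fell in AJ (-1.68 ± 0.18) and in C3H (-0.69 ± 0.18), and the receptor gene Tie1 fell in C3H (-0.76 ± 0.23). At 24 h 1 of 14 rose and 0 fell in C3H, where quantile normalization gave 0 higher and 1 lower, and 1 rose and 1 fell in AJ. Of 12 fibroblast markers, 0 rose in C3H at either time, and 1 rose at each time in AJ, where 3 fell at 24 h. The medians of these stromal and endothelial lists lay between -0.26 and -0.06 in the 4 comparisons, beside -0.05 to 0.01 over all probe sets. Of 7 alveolar type 1 markers, 6 fell in AJ at 6 h, 2 in AJ at 24 h, 2 in C3H at 6 h and 0 in C3H at 24 h. Markers of club, goblet and ciliated cells were mixed. In C3H 4 of 11 rose and 0 fell at 24 h, and 3 rose and 2 fell at 6 h. In AJ 4 rose and 5 fell at 24 h, and 4 rose and 1 fell at 6 h. With median centring 3 fell in AJ at 24 h and 0 at 6 h, and with quantile normalization 3 fell in AJ at 6 h. With a pseudocount of 1, 1 fell in C3H at 6 h. In AJ at 24 h, 6 of 11 heart and skeletal muscle markers and 2 of 8 adipose markers fell as well, with summed muscle intensity of 2549 to 6114 after allergen and 6151 to 11219 after PBS. Neither list had a called gene in the other 3 comparisons. The part of these tissues in the Il33 values was not tested.

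Markers of some leukocytes, namely macrophages with dendritic cells and neutrophils, were higher in the same comparisons. Among all probe sets, 1.64% (C3H, 24 h), 3.2% (C3H, 6 h), 3.42% (AJ, 24 h) and 6.28% (AJ, 6 h) rose. Macrophage and dendritic cell markers rose in 9 of 14 in C3H at 24 h, 5 of 14 in C3H at 6 h, 11 of 14 in AJ at 24 h and 9 of 14 in AJ at 6 h, with 0 lower. Their summed intensity was separate between allergen and PBS arrays in all 4 comparisons, for example 5610 to 7590 after allergen against 3779 to 4130 after PBS in C3H at 24 h, where Il33 did not pass. Neutrophil markers rose in 1 of 10 in C3H at 24 h, 5 of 10 in C3H at 6 h, 4 of 10 in AJ at 24 h and 9 of 10 in AJ at 6 h. Their summed intensity at 6 h was 4956 to 13368 with allergen against 1797 to 3426 with PBS in C3H, and 9022 to 11851 with allergen against 1296 to 3385 with PBS in AJ. Eosinophil markers rose in 0 of 6 in C3H at 24 h, 1 of 6 in C3H at 6 h, and 0 of 6 in AJ at either time, with 0 lower. With a pseudocount of 1, 0 rose in C3H at 6 h. The part of any of these cells in the Il33 difference was not tested.

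**Figure D3:**
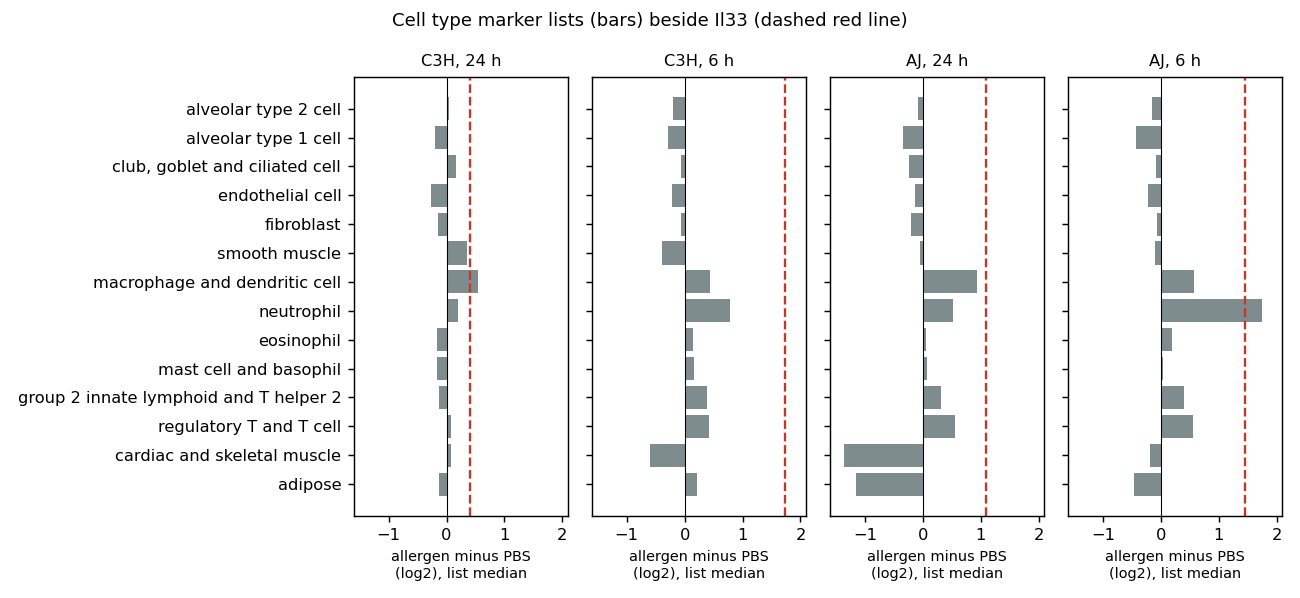
Median log2 difference between allergen and PBS of the genes of each cell type marker list (bars), beside the Il33 difference in the same comparison (dashed red line), for C3H and AJ at 24 h and 6 h. The alveolar type 2, endothelial and fibroblast bars stay near or below 0, at -0.26 to 0.04, while the macrophage bars lie at 0.45 to 0.93.

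Markers of the cells that carry ST2 were counted in the same way. Of 14 mast cell and basophil markers, 0 changed in C3H at 24 h, 1 rose in C3H at 6 h, 1 rose in AJ at 24 h, and 2 rose and 2 fell in AJ at 6 h. Mcpt8, a protease of basophils, rose by 1.59 ± 0.24 in C3H at 6 h (SE). In AJ it rose by 1.52 ± 0.24 at 24 h and by 1.76 ± 0.24 at 6 h. With the dimmest 25% of probe sets left out, 0 markers of the list rose in C3H at 6 h and AJ at 24 h, and 1 did in AJ at 6 h. That setting removes a probe set from every comparison, so Mcpt8 was not retested by it. Kit, which encodes the stem cell factor receptor, fell by 0.79 ± 0.13 in AJ at 6 h (SE), and which cells carried it was not tested. The summed intensity of that list overlapped between allergen and PBS arrays at 6 h, at 1620 to 1743 with allergen against 1462 to 1739 with PBS in C3H and 1500.3 to 1914 with allergen against 1698 to 1884 with PBS in AJ. Fcer1a, the IgE receptor gene that marks both cell types, had a mean level of 4.97, below the level of 5 that an intensity of 16 would give. Of 12 markers of group 2 innate lymphoid and T helper 2 cells, in C3H 0 rose at 24 h and 2 at 6 h. The 2 in C3H were the cytokine genes Il5 and Il13, both with a mean level of 4.75. With quantile normalization 0 rose there, and with a pseudocount of 1, 1 rose. With the dimmest 25% of probe sets left out, a setting that removes dim genes rather than retesting them, 0 rose there. In AJ 1 rose at 24 h, and 6 rose and 2 fell at 6 h. With median centring, the dimmest 25% left out or the replicate block, 1 fell in AJ at 6 h. With a pseudocount of 1, 2 rose in AJ at 24 h. These counts stand beside 1.64% (C3H, 24 h), 3.2% (C3H, 6 h), 3.42% (AJ, 24 h) and 6.28% (AJ, 6 h) of all probe sets that rose, and 9.41% that fell in AJ at 6 h. Of 11 regulatory T and T cell markers, 1 rose in C3H at 24 h, 1 in C3H at 6 h, 3 in AJ at 24 h and 5 in AJ at 6 h, with 0 lower. With the replicate block 3 rose in AJ at 6 h, and with a pseudocount of 1, 0 rose in C3H at 6 h. Some genes are on both this list and the one before it, so their counts are not independent. Cd3d, a chain of the T cell receptor complex, rose by 2.64 ± 0.39 in AJ at 6 h, and Ctla4, an inhibitory receptor gene of T cells, by 2.33 ± 0.25 (SE). The summed intensity of this list was separate in AJ at 6 h, with 650.5 to 1031 after allergen against 332 to 393 after PBS. It was also separate in AJ at 24 h, with 528 to 1327 after allergen against 263 to 456 after PBS, and in C3H at 6 h, with 511 to 832 after allergen against 347 to 491 after PBS. In C3H at 24 h the sums overlapped, with 221 to 933 after allergen and 288 to 464 after PBS. Ptgdr2, a prostaglandin receptor gene that defines group 2 innate lymphoid and T helper 2 cells, had a mean level of 4.55. It did not pass in any of the 4 comparisons.

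Other ligands of the IL-1 family were measured for 8 genes besides Il33. In C3H, 0 of 8 passed at 24 h and 3 rose at 6 h. In AJ, 2 rose at 24 h and 3 at 6 h, and 0 fell in either strain. The whole-array shares that rose were 1.64% (C3H, 24 h), 3.2% (C3H, 6 h), 3.42% (AJ, 24 h) and 6.28% (AJ, 6 h). Il1b, an inflammasome-processed cytokine, had a median intensity of 629 with allergen against 169 with PBS in C3H at 6 h, and of 905 with allergen against 128 with PBS in AJ at 6 h. Its log2 differences were 2.01 ± 0.24 in C3H and 2.6 ± 0.24 in AJ at 6 h (SE), and 0.53 ± 0.24 (limma adjusted p = 0.25) in C3H and 1.79 ± 0.24 in AJ at 24 h. Like Il33 it thus passed at 24 h in AJ and not in C3H, and its strain difference at 24 h, -1.25 ± 0.34 (SE), did not pass (limma adjusted p = 0.0961). Il1rn, which encodes the natural antagonist of the IL-1 receptor, rose by 1.64 ± 0.20 in C3H and 2.39 ± 0.20 in AJ at 6 h (SE), and by 1.58 ± 0.20 in AJ at 24 h. Its 3 probe sets rose at 6 h in both strains, by 0.85 to 1.64 in C3H and 1.03 to 2.47 in AJ. Il1a, a second alarmin of the family, rose by 0.95 ± 0.19 in C3H and 1.5 ± 0.19 in AJ at 6 h (SE). Il18 and the 3 genes Il1f6, Il1f8 and Il1f9, which encode IL-36 cytokines, did not pass in any of the 4 comparisons, nor did Il1f10.

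Receptors and inhibitors of the family were measured for 8 genes. Il1rap, which encodes the co-receptor that ST2 needs, did not pass in any of the 4 comparisons. Its median intensity was 119 with allergen against 120 with PBS in C3H at 6 h and 129 with allergen against 111 with PBS in AJ at 6 h. Its log2 differences were 0.03 ± 0.17 in C3H at 24 h, 0.35 ± 0.17 in C3H at 6 h, 0.51 ± 0.17 in AJ at 24 h and 0.08 ± 0.17 in AJ at 6 h (SE). Il1r1, the signalling receptor of IL-1, had median intensities of 281 with allergen against 85.0 with PBS in C3H and 436 with allergen against 21.8 with PBS in AJ at 6 h, and rose by 1.63 ± 0.33 and 3.24 ± 0.33 (SE). Il1r2, a decoy receptor, rose by 1.41 ± 0.21 in C3H and 2.71 ± 0.21 in AJ at 6 h (SE), and its strain difference at 6 h passed (-1.30 ± 0.30, SE, limma adjusted p = 0.0137), in a contrast where 0.751% of probe sets passed as lower. Il18bp, a decoy for IL-18, rose in C3H at 24 h and 6 h and in AJ at 24 h, by 1.28, 1.19 and 1.54 with an SE of 0.19 each. In AJ at 6 h its difference was 0.10, and its strain difference at 6 h passed in the other direction, at 1.09 ± 0.27 (SE, limma adjusted p = 0.0226). Il18bp was dim, with a mean level of 5.14 over all arrays. Its means were 4.52 to 4.76 in the PBS groups and 4.62 in AJ with allergen at 6 h, so these sizes depend on the pseudocount. With the dimmest 25% of probe sets left out, 0 genes of this list rose in C3H at 24 h, because that setting removes Il18bp from the fit. In the order Il1r2, Il1r1, Il1rl2, Il1rl1, Il18r1 and Il18rap, 6 receptor genes including that of ST2 lie on 1 mouse chromosome (RefSeq, GRCm38.p6). Of the 5 measured here, Il1rl2 and Il18r1, which flank Il1rl1, did not pass in any of the 4 comparisons, and Il18rap rose by 0.59 ± 0.13 in AJ at 6 h (SE).

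**Figure D4:**
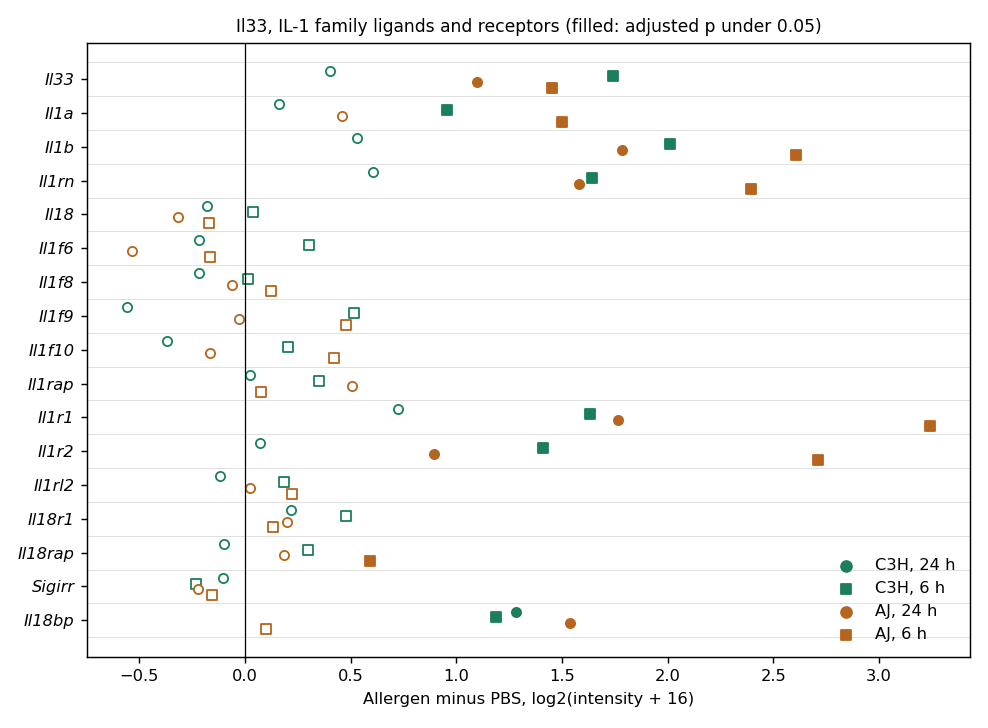
Allergen minus PBS on the log2(intensity + 16) scale for Il33, 8 other IL-1 family ligands and 8 receptors or inhibitors, in C3H (green) and AJ (orange) at 24 h (circles) and 6 h (squares); filled symbols have an adjusted p under 0.05. Il33, Il1a, Il1b, Il1rn, Il1r1 and Il1r2 are filled at 6 h in both strains, and Il1rap is open throughout.

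Genes of the signalling route below the receptor were counted next. Of 19 measured, 0 rose and 1 fell in C3H at 24 h, 3 rose and 2 fell in C3H at 6 h, 2 rose and 0 fell in AJ at 24 h, and 7 rose and 3 fell in AJ at 6 h. Over all probe sets, too, more passed at 6 h than at 24 h in each strain. The shares at 6 h were 3.2% higher and 2.51% lower in C3H, and 6.28% higher and 9.41% lower in AJ. Those at 24 h were 1.64% higher and 0.84% lower in C3H, and 3.42% higher and 2.38% lower in AJ. Myd88, the adaptor, rose by 0.93 ± 0.12 in C3H at 6 h, by 0.54 ± 0.12 in AJ at 24 h and by 1.25 ± 0.12 in AJ at 6 h (SE). Nfkbiz, a nuclear regulator of NF-kB, rose by 1.08 ± 0.19 in C3H and 1.96 ± 0.19 in AJ at 6 h, and Tnfaip3, a deubiquitinase that restrains NF-kB, by 0.73 ± 0.15 and 1.66 ± 0.15 (SE). These adaptors and regulators serve other receptors as well. Of 12 genes for cutting or release of IL-33, 1 rose in C3H at 24 h and 1 in AJ at 24 h, beside 1.64% and 3.42% of all probe sets. In both it was the necroptosis kinase gene Ripk3, at 0.67 ± 0.15 (limma adjusted p = 0.0127) in C3H and 0.49 ± 0.15 (limma adjusted p = 0.0495) in AJ (SE). The call in AJ was lost with quantile normalization, median centring, a pseudocount of 1 or an intensity trend. In AJ at 6 h, 1 fell, beside 9.41% of all probe sets, and it was lost with median centring.

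Among genes known to respond to ST2, 7 of 17 rose in C3H at 24 h, 15 of 17 in C3H at 6 h, 8 of 17 in AJ at 24 h and 15 of 17 in AJ at 6 h, with 0 lower. The median log2 differences were 0.48, 1.14, 0.77 and 1.95 in the same order, beside -0.04, 0.01, 0.00 and -0.05 over all probe sets. The shares of all probe sets that rose were 1.64%, 3.2%, 3.42% and 6.28% in that order. Many of the listed genes respond to other cytokines too. The eotaxin gene Ccl24 rose in all 4 comparisons, by 3.16, 3.70, 3.43 and 3.40 with an SE of 0.32 each. The cytokine genes Il4, Il5 and Il13 passed at 6 h and in neither strain at 24 h. At 6 h Il13 rose by 0.72 ± 0.21 in C3H and 1.19 ± 0.21 in AJ, Il5 by 0.64 ± 0.19 and 0.68 ± 0.19, and Il4 by 0.75 ± 0.17 and 1.25 ± 0.17 (SE). Mean levels of Il5 and Il13 over all arrays were 4.75 each, so these sizes depend on the pseudocount. In C3H at 6 h, neither of these 2 genes passed with quantile normalization. The other epithelial alarmins Tslp and Il25 did not pass in any of the 4 comparisons, and Il25 had a mean level of 4.2, below the level of an intensity of 16.

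Transcription factor genes with known links to Il33 or Il1rl1 numbered 16. In AJ at 6 h 6 rose and 3 fell, in C3H at 6 h 3 rose, in AJ at 24 h 2 rose, and in C3H at 24 h 0 passed. Over all probe sets AJ at 6 h also had the most calls, with 6.28% higher and 9.41% lower. Higher in the other comparisons were 3.2% (C3H, 6 h), 3.42% (AJ, 24 h) and 1.64% (C3H, 24 h). Batf, an AP-1 family factor of lymphocytes, rose by 1.13 ± 0.23 in C3H at 6 h, 1.20 ± 0.23 in AJ at 24 h and 1.42 ± 0.23 in AJ at 6 h (SE). Irf4, an interferon regulatory factor, rose by 0.90 ± 0.25 in C3H and 1.78 ± 0.25 in AJ at 6 h (SE). Gata2, which is also on the mast cell and basophil list, fell by 0.54 ± 0.12 in AJ at 6 h (SE). Its dimmer probe set changed by -0.35 (limma adjusted p = 0.298). Gata1 did not pass in any of the 4 comparisons. Gata3, which specifies type 2 lymphocytes, fell by 0.65 ± 0.21 in AJ at 6 h (SE) at a mean level of 5.16.

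The genes most like Il33 in level over the 40 arrays were ranked by the Pearson correlation of log2 levels, among 5605 genes with a mean level of at least 7 over all arrays. A gene that is dim in PBS lungs can pass that limit through its allergen groups, as Ccl11 did with PBS means of 5.65 to 6.20. Il1r1, at a mean level of 6.84, lay below the limit with r = 0.89. They were Cd53, a leukocyte tetraspanin gene (r = 0.92), Iigp1, an interferon-induced GTPase gene (0.91), Srgn, which encodes a granule proteoglycan of leukocytes (0.90), the eotaxin gene Ccl11 (0.89), Il1b (0.88) and Ifi47, another interferon-induced GTPase gene (0.88). Spearman coefficients were 0.84 to 0.91, and correlations over the 8 group means were 0.92 to 0.98. The arrays of a group share treatment, strain and time, so most of this likeness is between groups. With group means removed, the correlations were 0.68 for Cd53, 0.64 for Ccl11, 0.63 for Srgn, 0.44 for Il1b, 0.40 for Iigp1 and 0.39 for Ifi47. On the arrays of C3H with PBS at 6 h, Il33 levels were 7.97, 7.84, 8.95, 8.95 and 9.0, while Cd53 levels were 8.41, 7.35, 8.37, 8.42 and 8.81. Both were lowest on array 2, and array 1 was low in Il33 and not in Cd53.

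**Figure D5:**
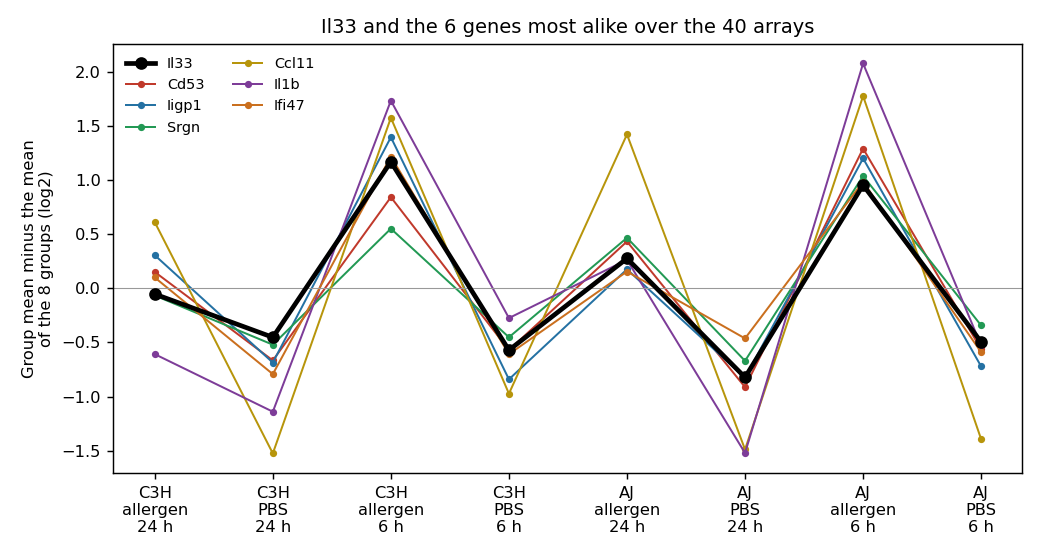
Group means of log2(intensity + 16), each gene centred on the mean of its 8 groups, for Il33 (black) and the 6 genes with the highest correlation over the 40 arrays among those with a mean level of at least 7. For all 7 genes the 2 highest group means are those of the 6 h allergen groups, which the choice of genes by likeness to Il33 on these arrays favours.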

How the data were processed

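The authors deposited 1 linear intensity per probe set and array, and the software that made it is not given in the sources used here. The mean after trimming 2% at each end was 150.036 to 150.046 on every array, so the arrays had been scaled to a common trimmed mean, and array medians ran from 63.8 to 81.4. No detection calls were used, and the number of arrays limits the precision.

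Controls (64 of 22690 probe sets) were left out. Of 22626 probe sets, 20380 had 1 symbol, 691 several and 1555 none in the platform annotation. The scale of analysis was log2(intensity + 16), whose pseudocount understates changes of dim genes, and 18.2% of values lay below 16. A model with 8 group means was fitted to 40 arrays in limma 3.58.1 (R 4.3.3, 32 residual degrees of freedom), with Benjamini-Hochberg adjustment over all probe sets within each of 16 contrasts (threshold 0.05, two-sided). A change "passed", "rose" or "fell" at that threshold. Spreads of groups are SDs, and errors of differences are limma SEs.

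List genes stand for their brightest probe set. The text could name all genes of the IL-1 family, Myd88, Il4, Il5, Il13, Tslp, Il25, Gata1, Gata2 and Gata3. From any other list it could name the 4 genes with the largest passing change in a comparison, and defining markers near the floor. The genes and lists were chosen with earlier results of these data known. The fit was tested on simulated data. Start-site windows came from RefSeq.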

Additional observations from a re-analysis of the deposited data

Results flagged for a closer look

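The Il33 response to allergen in C3H lungs differed between times by the contrast itself, at -1.34 on the log2 scale (24 h minus 6 h). Levels at 24 h were 9.06 with allergen and 8.66 with PBS, and at 6 h they were 10.28 with allergen and 8.54 with PBS. Dixon's criterion for a single outlying array was not met in any of the 8 groups, but it cannot detect a low pair such as arrays 1 and 2 of C3H with PBS at 6 h.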

How the results depend on the processing

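Of 356 Il33 values under alternatives, 350 kept their direction and their side of the threshold. They covered quantile and median scaling, pseudocounts of 1 and 64, leaving out the dimmest 25% of probe sets, 1 probe set per gene, an intensity trend, the replicate block, only the groups compared, the exact permutation test and leaving out single arrays (200 values). The C3H difference between times (-1.34) did not pass when only the groups compared were fitted (adjusted p = 0.0804), a fit with fewer samples. C3H minus AJ with PBS at 24 h (0.37) passed by the exact permutation test, unadjusted (p = 0.0238). Leaving out single arrays gave -0.19 to 0.10 for C3H minus AJ with PBS at 6 h and -0.057 to 0.23 for 24 h minus 6 h in C3H with PBS. The sign turned without array 2 (0.10 and -0.057) or array 1 (0.07 and -0.02) of the C3H PBS group at 6 h, and the cause was not tested. Across the alternatives other than single arrays, the allergen difference was 0.36 to 0.45 in C3H at 24 h, 1.61 to 1.79 in C3H at 6 h, 0.99 to 1.14 in AJ at 24 h and 1.35 to 1.51 in AJ at 6 h. Replicate numbers are shared between groups, but same-numbered arrays did not deviate together (correlations of -0.27 to 0.23), so the numbers were not taken as pairs. With the replicate block C3H at 6 h kept 1.74 (adjusted p = 3.46e-07) and the difference between times in C3H -1.34 (adjusted p = 0.0171). The block changed no call for Il33. The share of calls that were higher moved with median centring, in AJ at 6 h to 52.7% against 40.0%, and in C3H at 24 h to 80.8% against 66.1%. Of 1408 counts of called list genes under alternatives, 47 moved by more than 1.5 times, each to a value of 0 to 3 genes. Dim genes such as Il25, Fcer1a and Ptgdr2 give little information.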
